A study of Mus musculus with 16 samples.

Results

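Germline and meiosis genes were followed in 16 libraries of mouse embryonic stem (ES) cells that expressed wild-type or mutant CTCF. The set holds 37 genes listed by symbol for their known roles in germ cells: 13 of the piRNA pathway and germ granule, 7 of the synaptonemal complex and chromosome axis, 5 of meiotic recombination, 6 of meiotic entry and germline transcription, and 6 other germ cell proteins. All 37 were found among the 55291 genes of the deposited table, and 36 reached the mean normalised count of 10 that was asked of a gene before it was tested. Spo11, which encodes the enzyme that makes meiotic DNA breaks, fell short of it. Asz1 reached it with a mean of 10.2 only through the 2 K365T libraries in LIF, so a difference of that group had to follow and its test carries no independent weight. Spo11, with a mean of 4.48, was the only gene of the set under the limit, and Asz1 was the nearest above it. Tdrd6 and Mei1 reached it only through the libraries without LIF, so the filter favoured a rise of both upon LIF removal.

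The cells were E14Tg2a, an ES line of strain 129/Ola grown without feeder cells. Their endogenous CTCF, the DNA-binding protein that sets the borders of chromatin loops, carries a degron and is destroyed when the auxin indole-3-acetic acid is added. A doxycycline-inducible transgene supplies CTCF that is wild type (WT) or bears R342C, K365T or Q418R. Each form is represented by 1 line, so genotype and line cannot be told apart. Auxin (500 µM) and doxycycline (1 µg/ml) were given in all 8 groups, for 2 days by the protocol, so endogenous CTCF was targeted in the WT group too. The LIF groups stayed in serum with leukemia inhibitory factor (LIF) and 2 inhibitors, CHIR99021 at 3 µM and the MEK inhibitor PD0325901 at 1 µM. The groups called no LIF spent 3 days in this medium without those additions. The 8 groups of line and medium had 2 libraries each, and the study asked how CTCF mutants behave as cells leave pluripotency.

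Germ cells protect their genome from transposons with PIWI proteins and the small piRNAs they carry, which are made in granules built from Tudor-domain proteins, helicases and scaffold proteins. In meiosis, HORMA-domain and axis proteins organise the chromosomes, the synaptonemal complex joins homologues, and recombination enzymes make and repair DNA breaks. Outside the germline many of these genes are silent, held by DNA methylation and by PRC1.6, a Polycomb complex whose E2F6 and MGA-MAX subunits recognise short promoter elements. ES cells in naive culture have low DNA methylation and are known to transcribe part of this programme.

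Reads recovered per library numbered 19721363 to 31935381. Ctcf transcripts, whether from the endogenous gene or the transgene, gave 5292 to 8585 normalised counts over the 16 libraries. Replicate 2 of WT without LIF stood apart in its share of structural RNA, 6.88% of normalised counts against 2.27% to 5.06% in the other 15. Log2 values of replicates correlated across genes with r of 0.978 to 0.993. Nothing states that libraries came from separate cultures, so p-values measure the spread between these samples, which may be technical. In bulk RNA, more cells that express a gene and more RNA per cell cannot be told apart.

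In WT cells in LIF the genes spanned a wide range of levels, compared here per length as TPM, the authors' values scaled for gene length and depth, averaged over 2 libraries. Stra8, the retinoic acid target that starts meiosis, led with 129 TPM, followed by the axis gene Sycp3 with 69.1 and Tex19.1, a transposon repressor of ES and germ cells, with 57.2. Sohlh2, a germline transcription factor, was at 31.5 TPM and Hormad1, an axis protein, at 31.2. At the other end stood Tdrd6 with 0.0370 TPM, Mei1, required for meiotic breaks, with 0.163, and Asz1 with 0.0220. In K365T cells in LIF the leading genes were Tex19.1 with 146 TPM and Sohlh2 with 123, while Stra8 was at 59.1. Spo11 gave 0 to 10 recovered reads per library. Its WT libraries held 3 and 10 reads in LIF and 1 and 0 without LIF, a ratio of 11.4 with a 95% counting interval of 1.71 to 484.

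**Figure D1:**
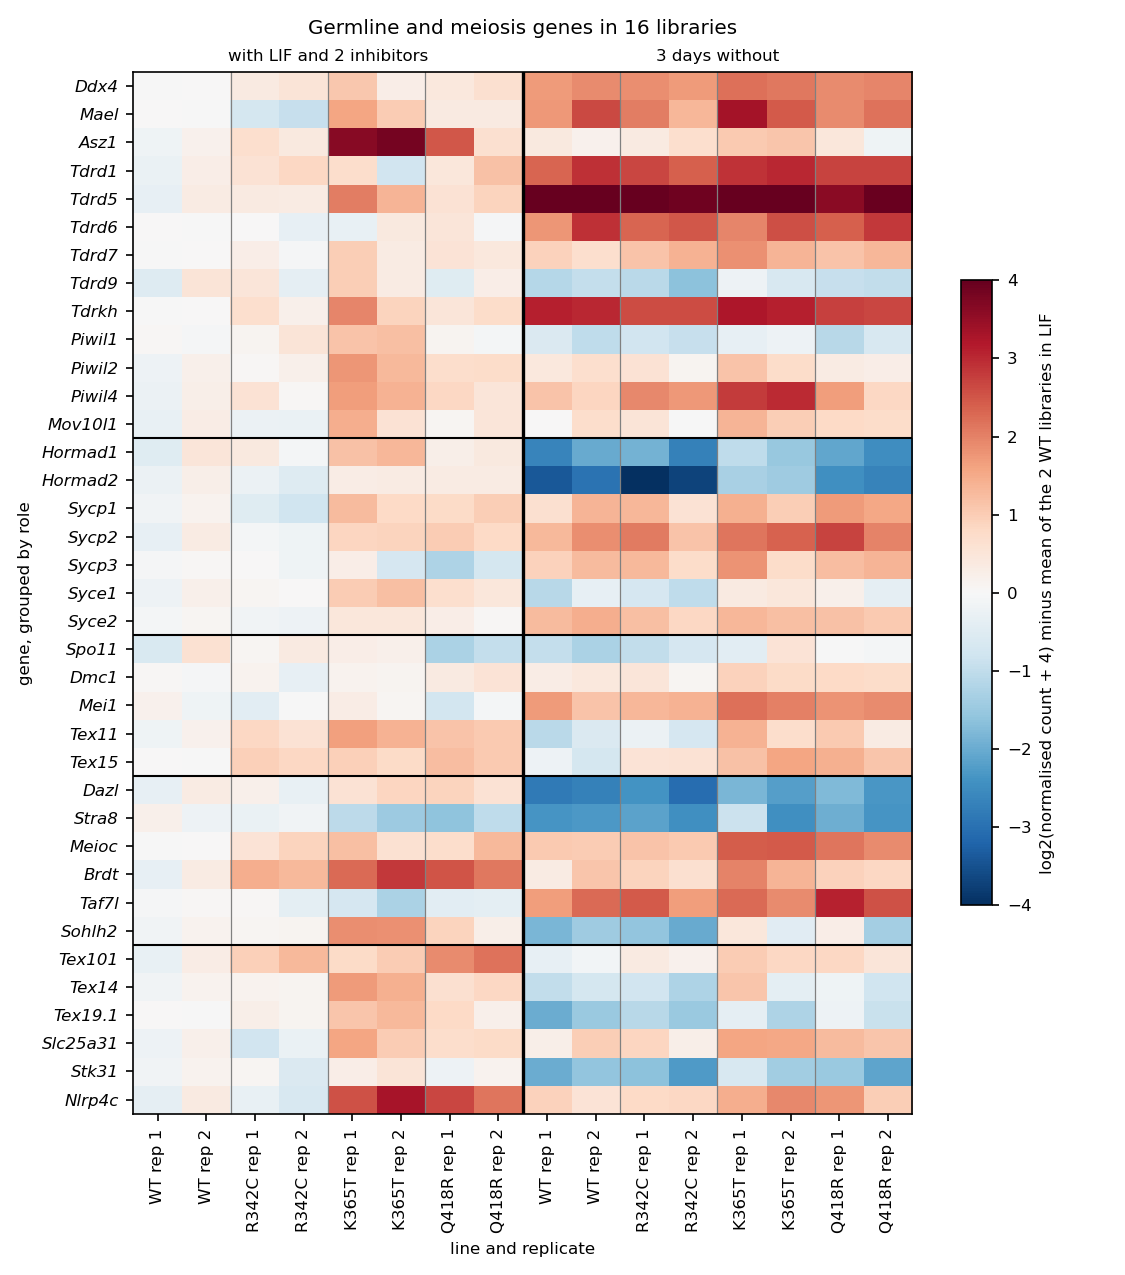
Values of the 37 genes (rows, grouped by role) in the 16 libraries (columns), as log2 of the normalised count plus 4 minus the mean of the 2 WT libraries in LIF; red is higher and blue lower. The K365T columns in LIF are red for most rows, and without LIF Tdrd1, Tdrd5, Tdrd6 and Tdrkh turn red and Dazl, Hormad1, Hormad2 and Stra8 blue in the WT columns.

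Promoters are shown because many of these genes moved together. For 32 of the 37 genes a RefSeq promoter of 300 bases on GRCm38.p6, the mm10 assembly, was at hand, reaching from 250 bases before to 50 bases after the annotated start. On both strands 2 elements were searched. The first was TCCCGC, the core that E2F6 is known to bind, which reads as its reverse complement where it lies on the other strand. The second was CACGTG, the palindromic E-box of MGA-MAX, and the 2 motifs do not overlap each other. TCCCGC was in 12 of 32 promoters (37.5%) against 6562 of 32851 promoters of all genes, and CACGTG in 13 (40.6%) against 7.15%. At least 1 of them was in 59.4% against 25.1%. The median promoter of the set held 18.5 CpG dinucleotides, against 7 for all. These are matches of letters, not measured binding. Both elements contain a CpG, and the shares were not adjusted for CpG content. The promoters below belong to the 4 genes that passed the test as higher than WT in the most mutant comparisons among those with a sequence (ties by the smallest p). The last 2 belong to the most abundant genes that passed it in none. Capitals mark either element, and each sequence runs along the strand of its gene.

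Meioc: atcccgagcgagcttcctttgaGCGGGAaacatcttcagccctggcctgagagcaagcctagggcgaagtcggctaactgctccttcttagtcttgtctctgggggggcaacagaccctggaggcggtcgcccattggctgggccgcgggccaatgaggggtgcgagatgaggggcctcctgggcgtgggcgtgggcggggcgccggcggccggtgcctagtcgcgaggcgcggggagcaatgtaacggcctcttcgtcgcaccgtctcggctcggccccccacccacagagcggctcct
Tex19.1: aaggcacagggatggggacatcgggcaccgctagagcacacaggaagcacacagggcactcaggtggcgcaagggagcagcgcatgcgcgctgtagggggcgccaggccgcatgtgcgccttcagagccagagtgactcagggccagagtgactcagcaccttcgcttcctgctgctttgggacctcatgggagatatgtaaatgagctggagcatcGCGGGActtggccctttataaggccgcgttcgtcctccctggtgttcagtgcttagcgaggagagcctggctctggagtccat
Nlrp4c: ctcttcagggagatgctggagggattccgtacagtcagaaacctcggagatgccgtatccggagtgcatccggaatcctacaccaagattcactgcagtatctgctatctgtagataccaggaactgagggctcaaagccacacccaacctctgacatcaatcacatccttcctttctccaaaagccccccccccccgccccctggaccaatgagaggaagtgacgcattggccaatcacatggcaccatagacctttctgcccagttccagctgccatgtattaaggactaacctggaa
Brdt: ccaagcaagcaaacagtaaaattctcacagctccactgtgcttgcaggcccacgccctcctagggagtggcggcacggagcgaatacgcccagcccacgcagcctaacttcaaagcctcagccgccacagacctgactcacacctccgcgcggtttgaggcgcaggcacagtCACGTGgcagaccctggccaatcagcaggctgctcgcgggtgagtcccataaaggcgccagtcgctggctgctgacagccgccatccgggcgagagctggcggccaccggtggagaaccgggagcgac
Sycp3: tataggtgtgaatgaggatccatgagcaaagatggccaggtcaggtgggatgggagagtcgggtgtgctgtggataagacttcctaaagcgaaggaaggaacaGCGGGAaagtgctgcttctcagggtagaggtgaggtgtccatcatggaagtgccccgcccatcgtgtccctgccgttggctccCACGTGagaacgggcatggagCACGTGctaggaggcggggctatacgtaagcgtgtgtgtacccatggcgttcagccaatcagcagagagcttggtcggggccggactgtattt
Dazl: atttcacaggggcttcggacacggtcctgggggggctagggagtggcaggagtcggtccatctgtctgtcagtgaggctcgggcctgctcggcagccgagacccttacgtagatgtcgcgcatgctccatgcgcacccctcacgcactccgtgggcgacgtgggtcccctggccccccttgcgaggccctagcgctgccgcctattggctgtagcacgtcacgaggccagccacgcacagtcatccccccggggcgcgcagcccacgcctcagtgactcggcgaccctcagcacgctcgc

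Meioc lies on the plus strand at chr11:102665335-102665634, with its RefSeq start 1869 bases from the GENCODE gene start, Tex19.1 on the plus strand at chr11:121145893-121146192, and Nlrp4c on the plus strand at chr7:6044911-6045210. Brdt is on the plus strand at chr5:107330944-107331243, Sycp3 on the plus strand at chr10:88459337-88459636, and Dazl on the minus strand at chr17:50293571-50293870. Meioc and Tex19.1 each hold 1 TCCCGC and Brdt 1 CACGTG, whereas Nlrp4c and Dazl hold neither. Sycp3, which passed the test against WT in no mutant, holds 1 TCCCGC and 2 CACGTG. Not passing does not mean unchanged. In LIF, Sycp3 had 318 and 462 normalised counts in Q418R against 719 and 780.2 in WT. Dazl had 1352 and 1653 in K365T and 1712 and 1368 in Q418R, against 728 and 1142 in WT. Among the genes higher in K365T in LIF, described next, 9 of 17 promoters hold TCCCGC, against 3 of 15 for the other tested genes, and 7 of 17 hold CACGTG against 6 of 15. No test was made of these shares. The RefSeq start used for Piwil1, counted among the 7 with CACGTG, lies 33722 bases from the GENCODE gene start. For Mei1 and Tex101 the distance is 12480 and 4625 bases.

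In LIF, germline genes were widely higher in the K365T line than in WT. Of the 36 tested genes 20 rose and 1, Stra8, fell, a share far above that of all genes, of which 11.1% were called (6.42% higher and 4.66% lower). Leaving aside Asz1, which the filter let in through this group, 19 of 35 rose. The median log2 difference was 0.96 for the set and -0.02 for all 17757 tested genes. Differences here are between means of log2(normalised count + 4), with the standard error of the limma fit, and a gene is called at a Benjamini-Hochberg adjusted p under 0.05 over all tested genes. The values of both K365T libraries lay above both WT libraries for 29 genes, below them for 2, and overlapped for the other 5, where 27% of all tested genes lay above and 29.6% below in this way. Summed over all 37 genes, normalised counts were 19629 and 18332 in K365T and 10323 and 11406 in WT.

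Piwi and germ granule genes made up 8 of the 20, with a median difference of 1.17 over their 13 genes and none lower. These values include Asz1, which passed the filter only through this group and carries no independent weight. Leaving Asz1 aside, 7 of 12 rose. Asz1, a scaffold on the mitochondria of germ cells, had 0 and 1 recovered reads in WT and 47 and 58 in K365T, a ratio of 123 with a counting interval of 21.7 to 4923. Piwil2 (MILI), a PIWI protein of fetal and adult germ cells, went from 222 and 289.6 normalised counts in the WT libraries to 868 and 630.2 in K365T, a log2 difference of 1.53 ± 0.21 (adjusted p = 0.000754). Both of its K365T values were above those of all other 14 libraries. Piwil4 (MIWI2), the nuclear PIWI protein that directs DNA methylation, had 10.1 and 15.1 in WT and 48.6 and 39.0 in K365T (1.53 ± 0.33). Piwil1 (MIWI), the PIWI protein of late meiosis and spermatids, had 81.8 and 77.8 in WT and 179 and 191 in K365T (1.17 ± 0.26). All 3 PIWI genes of the set thus rose. Their groups did not overlap, which was likely for called genes.

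Tudor-domain proteins bind methylated PIWI proteins, and here they divided. Tdrd5 was at 28.0 and 47.5 in WT and 162 and 101 in K365T (1.70 ± 0.26, adjusted p = 0.00123). Tdrkh, which helps trim piRNAs, was at 31.9 and 32.4 and 135 and 62.6 (1.41 ± 0.29). Both rose, whereas Tdrd1 (33.5 and 50.8 in WT, 69.6 and 22.6 in K365T) and Tdrd6 (at most 4 recovered reads in any LIF library) were not called, and their groups overlapped. Tdrd7 and Tdrd9, at 0.66 ± 0.27 and 0.66 ± 0.42, did not pass the test either. The exons of Tdrd5, Tdrkh and Piwil4, and of the axis gene Sycp3, overlap a gene on the opposite strand, and whether the counting used the strand is not stated. Mael, a granule protein, rose from 127 and 126 to 385 and 259 (1.29 ± 0.33). Ddx4, the Vasa helicase, had 259 and 264 in WT and 553 and 313 in K365T, a rise of 0.66 ± 0.20 with an adjusted p of 0.0489. Mov10l1, the helicase that feeds piRNA precursors into processing, had 113 and 169.6 and 386 and 207 and missed the threshold (1.01 ± 0.32, adjusted p = 0.057).

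Of the 7 synaptonemal complex and axis genes 3 rose and none fell. Hormad1 went from 313 and 618 in WT to 990.4 and 1117 in K365T (1.25 ± 0.34), while its relative Hormad2 had 275 and 376 and 394 and 407 and was not called (0.31 ± 0.24). For Hormad1 the groups did not overlap, although the WT libraries lay far apart. Syce1, of the central element, rose from 336 and 439.8 to 786 and 891 (1.11 ± 0.25). Its partner Syce2 had 319 and 359 and 462 and 464, a smaller difference that was not called (0.45 ± 0.16, adjusted p = 0.0824). Sycp1, the transverse filament, rose from 47.5 and 58.3 to 133 and 95.5 (1.04 ± 0.31, adjusted p = 0.0476). Sycp2 and Sycp3, which form the axial elements, were not called. Sycp2 had 16.4 and 28.1 in WT and 42.0 and 43.1 in K365T. Sycp3 had 719 and 780.2 in WT and 902 and 464 in K365T, with 1 K365T library on each side of the WT pair.

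Among the 4 tested recombination genes, Tex11, an X-linked crossover protein, rose from 99.7 and 129 to 358 and 303 (1.51 ± 0.29). Tex15, needed to repair meiotic breaks, rose from 818 and 784 to 1551 and 1353 (0.85 ± 0.17). The recombinase gene Dmc1 (227 and 217 in WT, 244 and 240.2 in K365T) and Mei1 (7.79 and 5.40 and 8.84 and 7.18) were not called.

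The regulators of meiotic entry went in both directions. Brdt, a testis bromodomain protein, rose from 52.2 and 83.2 in WT to 330.5 and 493 in K365T (2.54 ± 0.31, adjusted p = 0.0003). Sohlh2 rose from 572 and 707 to 2302 and 2247 (1.83 ± 0.41), and its K365T values in LIF were the highest of the 16 libraries. Meioc, which sustains the meiotic prophase programme, rose from 378 and 385 to 883 and 587 (0.91 ± 0.21). Stra8 instead had 2291 and 1696 in WT and 947 and 724 in K365T, a fall (-1.25 ± 0.37, adjusted p = 0.0432). Taf7l, a germ cell relative of a TFIID subunit, was also lower in both K365T libraries (29.8 and 18.5 against 49.1 and 51.9) but was not called (-0.98 ± 0.32, adjusted p = 0.0675). Dazl, the RNA-binding protein that licenses germ cells for meiosis, had 728 and 1142 in WT and 1352 and 1653 in K365T and did not pass (0.71 ± 0.28).

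Of the 6 other germ cell proteins 4 rose. Nlrp4c, of an oocyte gene family with close paralogs between which reads may be split, had 38.9 and 68.1 in WT and 321 and 546 in K365T (2.93 ± 0.35, adjusted p = 0.00026). Tex14, of the bridges between germ cells, rose from 431 and 529 to 1582 and 1277 (1.56 ± 0.35). Tex19.1, which has the paralog Tex19.2, rose from 934 and 904 to 1996 and 2257 (1.20 ± 0.29). Slc25a31, the ADP/ATP carrier of testis mitochondria, rose from 14.8 and 20.5 to 59.7 and 39.0 (1.29 ± 0.35). For these 4 the groups did not overlap, which was likely for called genes. Tex101, a surface protein of male germ cells, had 31.2 and 48.6 and 68.5 and 83.1 (adjusted p = 0.0529), and the kinase gene Stk31 had 635 and 766 and 840.1 and 1003. Neither was called.

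The number of calls rested on both libraries of each group. It was 6 without WT replicate 1, 12 without WT replicate 2, 7 without K365T replicate 1 and 14 without K365T replicate 2, while the share of all genes called fell to between 4.13% and 5.66%. Brdt, Nlrp4c, Piwil2 and Tdrd5 kept their calls in every fit. Asz1 did so wherever it was tested, but it had entered through this group, and the other 16 lost theirs in at least 1 fit.

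**Figure D2:**
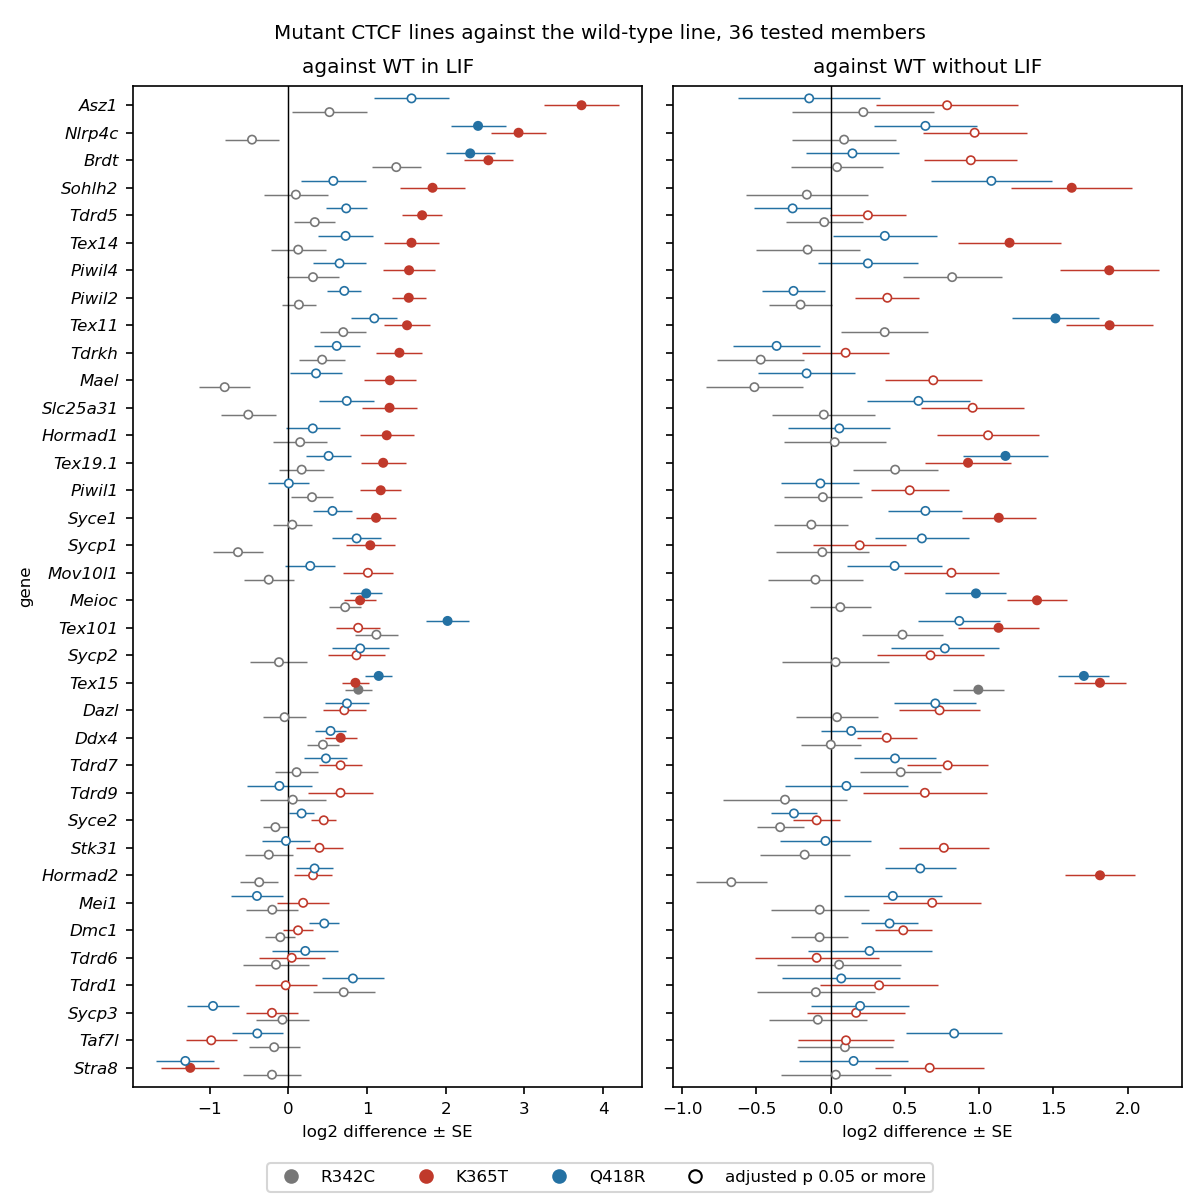
Log2 difference from WT with its standard error for the 36 tested genes, in LIF on the left and without LIF on the right, for R342C (grey), K365T (red) and Q418R (blue), 2 libraries per group; filled points have an adjusted p under 0.05. In LIF the red points lie right of 0 for 32 of the 36 genes and most grey points lie near 0.

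Q418R in LIF showed a smaller rise. 5 genes were higher than WT and none lower, against 4.25% of all genes called (1.86% higher and 2.38% lower), with a median difference of 0.57. Tex101 was at 31.2 and 48.6 in WT and 155 and 188 in Q418R (2.02 ± 0.28, adjusted p = 0.00113), the highest values of the 16 libraries. Brdt had 394 and 299 (2.31 ± 0.31) and Nlrp4c 351 and 242 (2.41 ± 0.35) in the Q418R libraries. Tex15 had 1900.4 and 1666 (1.15 ± 0.17) and Meioc 619.6 and 934 (0.99 ± 0.21). The Q418R and WT libraries did not overlap for these 5, which was likely for called genes. The share of all genes without overlap was not computed here. Of the calls 4, all but Meioc, held in every fit. Asz1 was uneven, with 18 and 3 recovered reads in Q418R against 0 and 1 in WT, and was not called (adjusted p = 0.0882). Stra8 had 642 and 978 in Q418R, below both WT libraries, without passing the test (-1.31 ± 0.37, adjusted p = 0.0628).

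In R342C in LIF, Tex15 was the 1 gene called, against 0.417% of all genes (0.332% higher and 0.0845% lower), and the median difference was 0.08. Tex15 had 1548 and 1429 in R342C (0.89 ± 0.17, adjusted p = 0.0354), above both WT libraries, but leaving out any of the 4 libraries ended the call. Brdt had 188 and 167 in R342C (1.37 ± 0.31, adjusted p = 0.108) and Tex101 78.7 and 101 (1.12 ± 0.28, adjusted p = 0.173). Both were higher than in either WT library without passing the test. The 3 mutants were compared with the same WT libraries, so their differences from WT are not independent of each other.

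The mutants also differed from one another in LIF. K365T exceeded R342C in 15 genes and fell below it in none, with 9.08% of all genes called (5.27% higher and 3.82% lower). The 15 include Asz1, which passed the filter only through the K365T libraries in LIF, so its call carries no independent weight. Mael, with 76.3 and 65.1 in R342C, and Sycp1, with 36.2 and 28.9, were also among the 15, at 2.10 ± 0.33 and 1.68 ± 0.31. Mov10l1 and Syce2, not called against WT, were called here (1.26 ± 0.32 and 0.61 ± 0.16). The count was 6 without R342C replicate 1, 5 without R342C replicate 2, 6 without K365T replicate 1 and 9 without K365T replicate 2, and all genes called in these 4 fits were 2.45%, 2.41%, 3.87% and 3.2%. Q418R exceeded R342C in Sycp1 (1.51 ± 0.31) and Nlrp4c (2.87 ± 0.35), with 3.12% of all genes called (1.16% higher and 1.96% lower). 1 of these 2 calls was left without either R342C library or without Q418R replicate 1, where all genes called were 0.31% to 0.929%.

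Between K365T and Q418R 5 genes differed in LIF, where 6.08% of all genes were called (3.51% higher and 2.57% lower). Asz1 (2.16 ± 0.48), Piwil1 (1.17 ± 0.26), Tdrd5 (0.96 ± 0.26) and Piwil2 (0.82 ± 0.21) were higher in K365T, and all 4 belong to the piRNA pathway. Tex101 was lower (-1.14 ± 0.28). Piwil1 had 85.8 and 74.7 in Q418R, on either side of the WT pair, and 179 and 191 in K365T. No call of this comparison held in every fit: 1 was left without K365T replicate 1, 3 without K365T replicate 2, 1 without Q418R replicate 1 and none without Q418R replicate 2. All genes called in these fits were 1.38%, 2.83%, 2.07% and 1.02%, so with 1 gene (2.78% of the set) or none the set was close to or below all genes. Asz1 again owed its test to the K365T libraries.

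**Figure D3:**
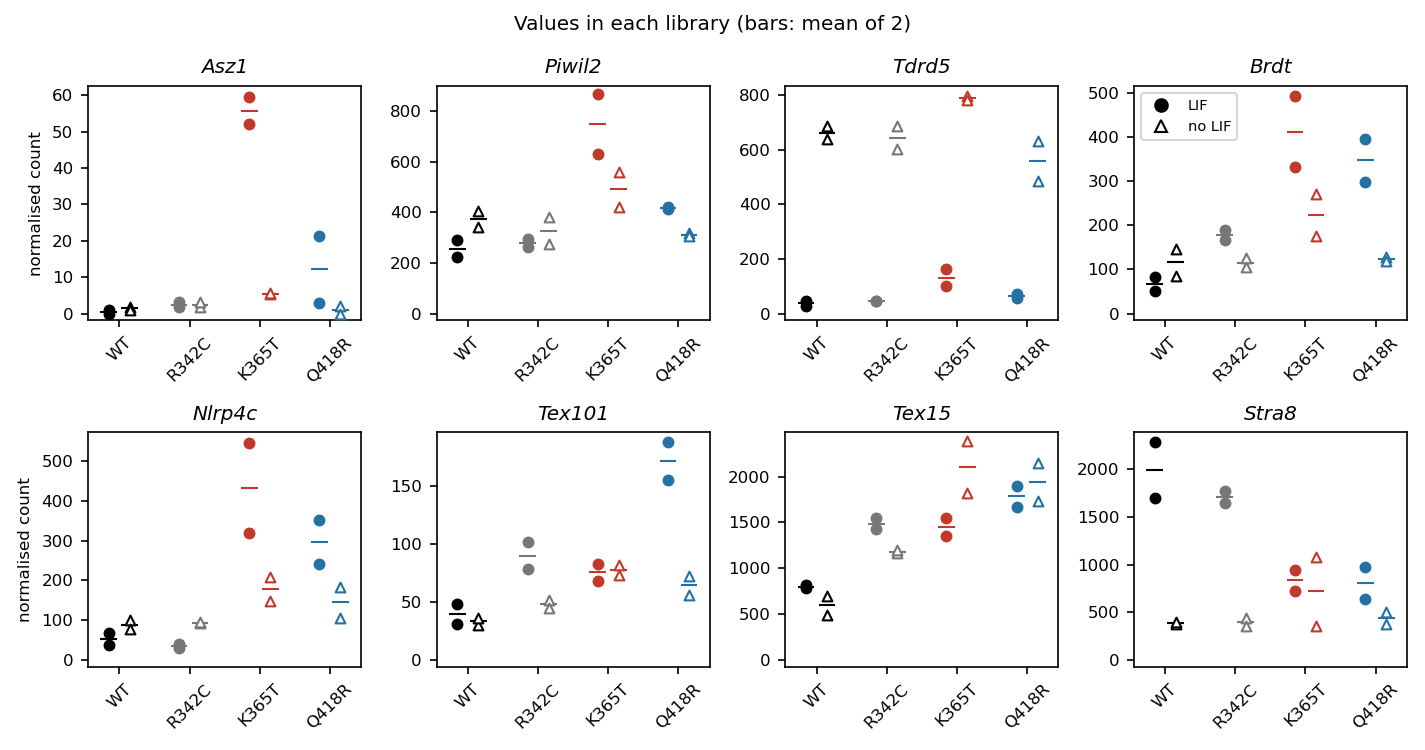
Normalised counts of 8 genes in each library for the 4 lines, circles in LIF and triangles without LIF, bars at the mean of 2; each panel has its own scale from 0. Tex15 lies higher in all 12 mutant libraries than in all 4 WT libraries, Tex101 peaks in Q418R in LIF, and Stra8 is highest in WT and R342C in LIF.

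Without LIF, K365T again had higher germline genes, 10 of 36 with none lower, against 14.7% of all genes called (7.38% higher and 7.33% lower). The median difference was 0.75 for the set. Tex15, with 702 and 495 in WT and 1821 and 2386 in K365T, differed by 1.81 ± 0.17 (adjusted p = 7.06e-05). Tex11 had 51.7 and 74.1 in WT and 302 and 188 in K365T (1.88 ± 0.29). Piwil4 had 32.5 and 25.8 and 109.6 and 125 (1.88 ± 0.33), and Hormad2 26.8 and 38.2 and 129.6 and 116 (1.81 ± 0.24). The K365T values of these 4 were all above the WT values, which was likely for called genes. The share of all genes was not computed. Meioc had 795 and 779 in WT and 2039 and 2101 in K365T (1.39 ± 0.21). Sohlh2 (1.62 ± 0.41), Tex14 (1.21 ± 0.35), Syce1 (1.13 ± 0.25), Tex101 (1.13 ± 0.28) and Tex19.1 (0.93 ± 0.29) completed the 10. The K365T libraries lay far apart for Tex14 (1026 and 366), Tex19.1 (709 and 390) and Sohlh2 (864 and 462). In WT Tex14 had 238 and 292, Tex19.1 231 and 328 and Sohlh2 175 and 233. Syce1 (498 and 530) and Tex101 (82.2 and 72.9) were more even in K365T.

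Of the 10, 8 were also higher in LIF: Meioc, Piwil4, Sohlh2, Syce1, Tex11, Tex14, Tex15 and Tex19.1. They are 8 of the 20 genes higher in LIF. The libraries in LIF are other ones, but of the same lines and in the same fit, so this is not an independent repeat. The share of all genes called higher in both media was not computed. Piwil2, Tdrd5, Tdrkh and Asz1 were not called without LIF, where they differed from WT by 0.38, 0.25, 0.10 and 0.78. The count of 10 rested on single libraries. It was 5 (13.9% of the set) without WT replicate 1, against 14% of all genes, and 6 (16.7%) without K365T replicate 1, against 15.3%, so in these fits the set was called about as often as all genes. It was 7 (19.4%) without WT replicate 2, the library with much structural RNA, against 4.87%, and 11 (30.6%) without K365T replicate 2, against 6.93%. In a fit of the 4 libraries of these groups alone no gene of the set and 0% of all genes were called.

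Q418R without LIF had 4 genes higher and none lower, against 6.15% of all genes called (3.02% higher and 3.13% lower), with a median difference of 0.38. Tex15 had 2149 and 1739 (1.71 ± 0.17), Meioc 1698 and 1424 (0.98 ± 0.21), Tex11 236 and 144 (1.51 ± 0.29) and Tex19.1 799 and 492 (1.18 ± 0.29) in the Q418R libraries. In WT Tex19.1 had 231 and 328, so its groups did not overlap, which was likely for a called gene. The count was 1 (2.78% of the set) without Q418R replicate 1, against 1.54% of all genes, and 2 (5.56%) without WT replicate 2, against 1.4%. It was 3 (8.33%) without WT replicate 1, against 8.9% of all genes, so there the set was called about as often as all genes. In a fit of the compared groups alone it was 0, as for all genes. R342C without LIF had Tex15 alone, with 1164 and 1195 (0.99 ± 0.17, adjusted p = 0.014), against 0.479% of all genes called (0.372% higher and 0.107% lower). That call ended without WT replicate 2, without either R342C library and in a fit of the compared groups alone. Tex15 was therefore called in all 6 comparisons of a mutant with WT, Meioc in 4, and Tex11 and Tex19.1 in 3 each. The 3 mutants share the WT libraries of each medium.

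Removal of LIF and the inhibitors changed most of these genes in WT cells: 16 rose and 12 fell, against 48.8% of all genes called (23.8% higher and 24.9% lower). Germ granule genes mostly rose, whereas Dazl, Stra8 and both HORMA-domain genes fell. Tdrd5 went from 28.0 and 47.5 in LIF to 641 and 686 without (4.04 ± 0.26, adjusted p = 2.22e-08), the largest change in the set. Tdrkh went from 31.9 and 32.4 to 308 and 291 (3.07 ± 0.29), Tdrd1 from 33.5 and 50.8 to 225 and 341 (2.63 ± 0.40) and Mael from 127 and 126 to 435 and 809 (2.19 ± 0.33). In all, 9 of the 13 piRNA pathway genes rose, and Tdrd9 (-1.06 ± 0.42) and Piwil1 (-0.80 ± 0.26) fell. Tdrd6 rose from 3 and 2 recovered reads in LIF to 18 and 39 without (2.35 ± 0.42), a rise that the filter favoured.

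Hormad2 fell from 275 and 376 to 26.8 and 38.2 (-3.18 ± 0.24), Hormad1 from 313 and 618 to 67.0 and 105 (-2.33 ± 0.34), while 4 synaptonemal complex genes rose. Of these, Sycp3 went from 719 and 780.2 to 1433 and 1807 (1.10 ± 0.33). Dazl fell from 728 and 1142 to 126 and 137 (-2.76 ± 0.28) and Stra8 from 2291 and 1696 to 381 and 399.5 (-2.33 ± 0.37). These 4 falls exceeded the spread between replicates, with adjusted p from 9.7e-08 to 0.000117. Taf7l (1.97 ± 0.32) and Meioc (1.04 ± 0.21) rose among the regulators, and Sohlh2 (-1.63 ± 0.41) fell. No other germ cell protein rose, and Stk31 (-1.77 ± 0.30) and Tex19.1 (-1.73 ± 0.29) fell. Without WT replicate 2 in no LIF, 22 of the genes (61.1%) and 40.4% of all genes were called.

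Most of these genes also responded in the mutants. R342C had 16 higher and 13 lower, where 47.2% of all genes were called (23.3% higher and 23.9% lower). K365T had 16 and 14, with 44.7% of all genes called (21.6% and 23%). Q418R had 13 and 13, or 14 and 9 on TPM, with 46.5% of all genes called (23% and 23.5%). Called in the same direction in all 4 lines were 12 rises (Ddx4, Mael, Mei1, Syce2, Sycp2, Sycp3, Taf7l, Tdrd1, Tdrd5, Tdrd6, Tdrd7 and Tdrkh, of which Mei1 and Tdrd6 passed the filter only through the libraries without LIF) and 8 falls (Dazl, Hormad1, Hormad2, Piwil1, Sohlh2, Stk31, Syce1 and Tex19.1). The share of all genes called alike in all 4 lines was not computed. These counts are therefore not shown to be particular to the set. Some genes were called in opposite directions. Nlrp4c rose in R342C (1.28 ± 0.35) and fell in K365T (-1.23 ± 0.35) and Q418R (-1.04 ± 0.35). Piwil2 rose in WT (0.55 ± 0.21) and fell in K365T (-0.60 ± 0.21). Tex15 fell in WT (-0.44 ± 0.17) and rose in K365T (0.52 ± 0.17).

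**Figure D4:**
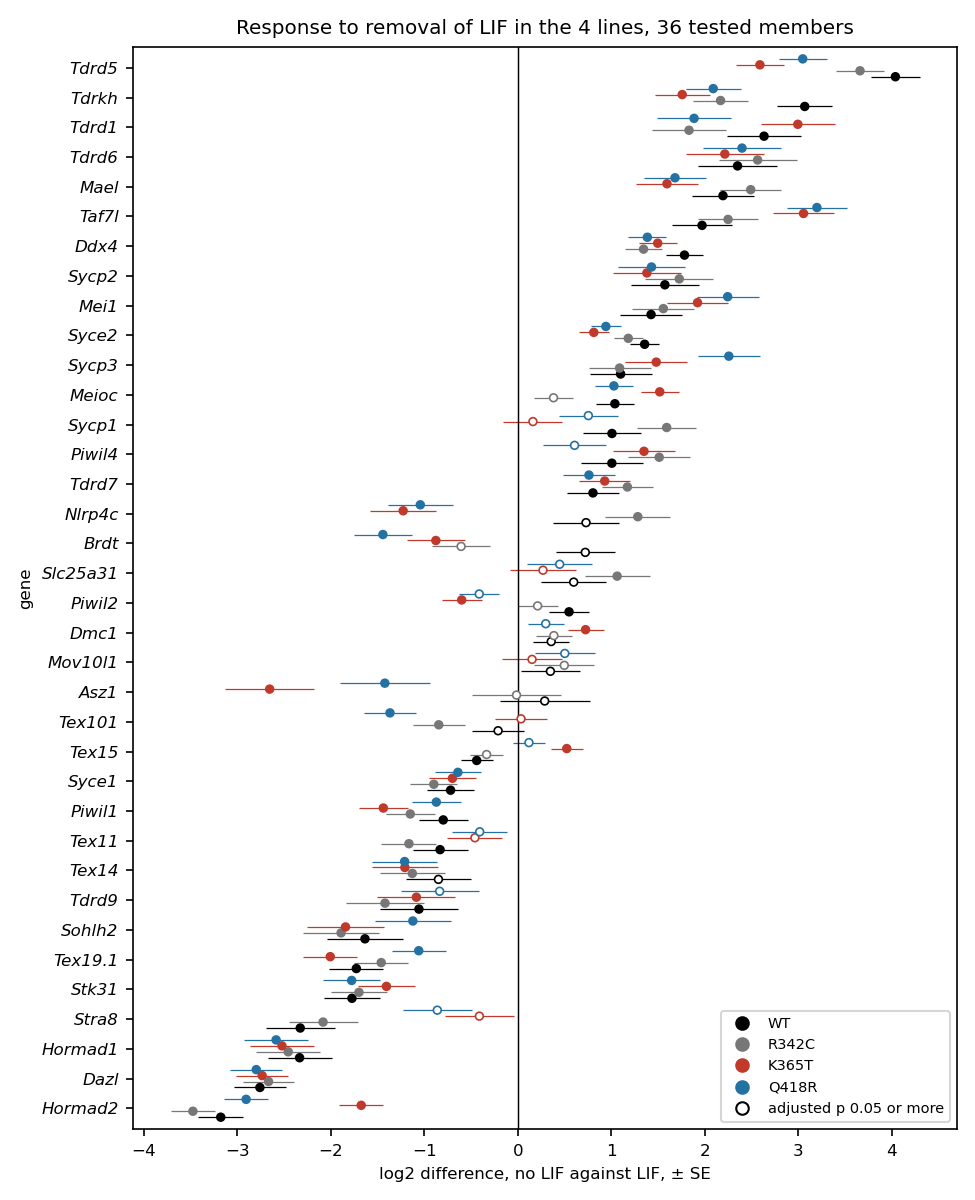
Log2 difference of no LIF against LIF, with its standard error, for the 36 tested genes in each of the 4 lines, ordered by the WT value; filled points have an adjusted p under 0.05. Tdrd5 leads the rises with 4.04 in WT and 2.59 in K365T, and Hormad2 the falls with -3.18 in WT and -1.67 in K365T.

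Whether a mutant's response differed from that of WT was tested directly as an interaction. None of the 36 genes passed in any mutant, against 0.659% of all genes called in K365T, 0.141% in Q418R and 0% in R342C. At an unadjusted p under 0.05 there were 11 genes in K365T, 11 in Q418R and 3 in R342C. The share of all genes at that threshold was not computed, so these counts cannot be set against it. The edgeR test on recovered reads called 1 gene in K365T, against 0.597% of all genes, and 0 in each of the others (0.113% of all genes in Q418R and 0% in R342C). DESeq2 called 8 in K365T (2.52% of all genes), 1 in Q418R (0.912%) and 0 in R342C (0.0113%). The largest in K365T were Asz1 (-2.94 ± 0.68, adjusted p = 0.0726), Nlrp4c (-1.95 ± 0.49, adjusted p = 0.0966) and Stra8 (1.91 ± 0.52, adjusted p = 0.127). Asz1 passed the filter only through the K365T libraries in LIF, so the filter favoured its negative value. Hormad2 had the smallest adjusted p (1.50 ± 0.34, adjusted p = 0.065). So the different directions of Nlrp4c, Piwil2 and Tex15 above are not shown to differ from WT by this test.

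Position along the chromosomes was set beside the results because whole chromosomes shifted in some lines. In K365T in LIF the median difference from WT was 0.47 on chromosome 1, 0.33 on chromosome 11 and 0.21 on chromosome 8, and in Q418R it was -0.38 on chromosome 6. The 21 genes called in K365T in LIF lie on 11 chromosomes. The medians of the tested genes within 5 Mb of them ran from -0.18 to 0.59, highest for Tdrd5 on chromosome 1. Each of the 21 lay at least 0.5 from the median of its own neighbours. Genes are called for large differences, so this was likely beforehand, and the share among all called genes was not taken. The median excess over neighbours was 1.05 for the 36 genes. Without LIF the K365T medians were 0.44 on chromosome 1, 0.37 on chromosome 11 and 0.19 on chromosome 8. The 10 genes called there lie on 6 chromosomes, with neighbour medians from -0.26 to 0.45, highest for Meioc. Tex19.1, with a difference of 0.93, had neighbours at 0.42. The part of the chromosome shifts in the results was not tested. Stra8 lies on chromosome 6, where its neighbours had a median of -0.13 in K365T and -0.41 in Q418R.

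**Figure D5:**
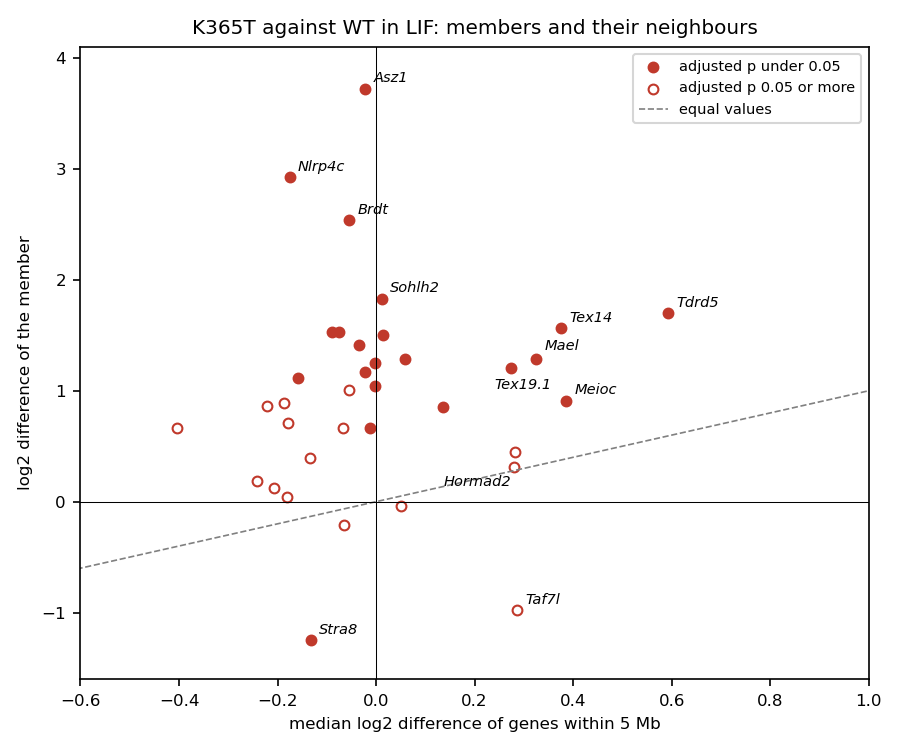
Log2 difference from WT of each of the 36 tested genes in K365T in LIF (vertical axis) against the median of tested genes within 5 Mb (horizontal axis); the dashed line marks equal values and filled points have an adjusted p under 0.05. The called points stand off the line, and Tdrd5, with 1.70 against 0.59, is farthest right.

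Other genes of these pathways, from lists chosen by function, moved less evenly in K365T in LIF. Of all genes, 6.42% were called higher there and 4.66% lower. Of 26 tested germ cell and oocyte genes 12 rose and none fell, but 3 of the 12, Rhox2a (2.39 ± 0.41), Magea5 and Nxf2, reached the mean of 10 only through the K365T libraries in LIF. Without the 4 tested genes of that kind, 9 of 22 rose. Scml2, a Polycomb protein of male germ cells, had 159.6 and 300.4 in WT and 1991 and 2137 in K365T (3.21 ± 0.30), and, of the others that did not depend on that group, Tuba3b (2.23 ± 0.32) and Usp26 (2.19 ± 0.35) were among the 9. Of 25 other meiosis genes 4 rose and none fell: Mcmdc2 (1.75 ± 0.41), Ankrd31 (1.24 ± 0.29), Stag3 (1.16 ± 0.24) and Hfm1 (0.79 ± 0.22). Of 13 other piRNA pathway genes 2 rose, Mybl1 (0.85 ± 0.22) and Pld6 (0.84 ± 0.25), and 2 fell, Tdrd12 (-1.39 ± 0.22) and Mov10 (-0.75 ± 0.21). In Q418R in LIF the same lists had 3, 0 and 0 genes higher and none lower. Of all genes, 1.86% were called higher in that comparison and 2.38% lower.

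Genes of the known repressors were measured too, with the enzymes that set or remove DNA methylation. Of 15 PRC1.6 and E2F6 complex genes 2 were higher in K365T in LIF, Yaf2 (0.72 ± 0.15) and Rnf2 (0.56 ± 0.11), and Rybp was lower (-0.38 ± 0.10). Of 17 enzymes and cofactors of DNA and H3K9 methylation 1 was higher, Tet3 (0.42 ± 0.13), and 1 lower, Atf7ip (-0.41 ± 0.11), where 11.1% of all genes were called. Upon LIF removal in WT, where 48.8% of all genes were called, 6 of the 17 rose and 6 fell, led by Dnmt3b (3.27 ± 0.27), Tet2 (-2.98 ± 0.18), Dnmt3a (2.70 ± 0.15) and Dnmt3l (2.20 ± 0.33).

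Markers of other cell types were measured beside the K365T result in LIF, where 11.1% of all genes were called. None of 8 pluripotency markers was called, and their summed counts were 89722 to 99071 in WT and 95962 to 100670 in K365T. Of 8 tested primordial germ cell markers Dnd1 was higher (1.31 ± 0.24) and Ifitm3 lower (449 and 394 against 794 and 899 normalised counts in WT), with sums of 15331 to 16866 and 17320 to 17561. Fibroblast markers had none of 7 called, with 1221 to 1243 and 1005 to 1372. The 2-cell-like markers had Usp17la called of 7, with 40.5 to 43.2 and 71.8 to 78.0. Their sum was also above WT in the other mutants in LIF, 69.8 to 76.3 in R342C and 87.6 to 139 in Q418R. Somatic gonad markers had none of 5 called, with 256 to 268 and 264 to 374, and Cyp17a1 and Hsd3b1 were at 0 in both groups. Without LIF the primordial germ cell sum was 1936 to 2146 in WT and 2655 to 3632 in K365T. Of the 8, Dppa3 (3.69 ± 0.55), Kit (1.73 ± 0.18) and Tfap2c (0.90 ± 0.28) were higher and Ifitm3 lower (-0.94 ± 0.20). In this comparison 14.7% of all genes were called. The 2-cell-like sum without LIF was 79.4 to 95.4 in WT and 184 to 302 in K365T. It was 197 to 258 in R342C and 218 to 405 in Q418R. The part of these cells in the results was not tested.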

How the data were processed

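Total RNA was sequenced in 16 libraries after ribosomal RNA depletion with a stranded kit, per the labels' protocols. The submitters' processing notes name Trim Galore, STAR, DESeq2 and mm10, without versions. The counting tool and annotation are not given in the sources used here. The authors deposited a table of normalised counts, in which the signal of every library was divided by a factor of its own, and a table of TPM, scaled by gene length and depth.

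Log2(normalised count + 4) was fitted with limma 3.58.1 (trend, empirical Bayes) in R 4.3.3, with 1 mean for each of 8 groups, 8 residual degrees of freedom and 16 contrasts. Tested were the 17757 genes with a mean of at least 10, out of 37742 that were above 0 somewhere, with Benjamini-Hochberg adjustment over all of them. The value 4 compresses differences of low genes.

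Each normalised value is a whole multiple of 1 step per library, so reads were recovered, with 100% of values whole within 0.05. For replicate 2 of Q418R in LIF the step is close to 1 and the unit check did not accept this recovery, so every edgeR 4.0.16 and DESeq2 1.42.0 result, used as alternatives only, includes a library whose reads were recovered without that approval. Ratios of recovered reads carry exact 95% intervals, which cover counting error only.

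Samples were grouped by the labels, and none was left out. Alternatives were a pseudocount of 1, a mean of at least 50, no filter, log2(TPM + 0.1), upper-quartile scaling, edgeR, DESeq2, only the libraries compared, a replicate block, and each library left out in turn. Positions came from GENCODE vM21 and promoters from RefSeq on GRCm38.p6. The genes, gene lists and tests were chosen with earlier results of these data known. Every gene of the set is accounted for. From other lists at most 4 called genes are named, by size, and Magea5, Nxf2 and markers with large changes were chosen after their values were seen.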

Additional observations from a re-analysis of the deposited data

How the results depend on the processing

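No difference of a called gene changed direction under any alternative. Over all settings and called genes, 1949 values kept their side of the threshold and 325 did not, 210 of them when 1 library was left out. With 2 libraries a group, leaving 1 out assumes that the lone library varies like the others. Counts of called genes ranged, with 1 library left out, from 6 to 14 for K365T against WT in LIF (21 with all), 0 to 0 for R342C in LIF (1), 5 to 11 for K365T without LIF (10), 1 to 5 for Q418R without LIF (4), 0 to 1 for R342C without LIF (1), 5 to 9 for K365T against R342C (15), 1 to 2 for Q418R against R342C (2), 0 to 3 for K365T against Q418R (5), and 0 to 1 for the K365T and Q418R interactions (0 each). All genes called in the same fits ran from 4.87% to 15.3% for K365T without LIF and from 1.4% to 8.9% for Q418R without LIF, and at counts of 5 and 6 for K365T and 3 for Q418R the set was called about as often as all genes. Fitting only the compared libraries gave 9 for Q418R in LIF, 0 for each of R342C, K365T and Q418R without LIF and 9 for Q418R against R342C. The spread is then estimated from 4 libraries. DESeq2 gave 3 for R342C in LIF, 8 for Q418R in LIF, 7 for Q418R against R342C, 8 for the K365T interaction and 1 for that of Q418R, and edgeR 1 for the K365T interaction. Without a filter R342C in LIF had 0 and K365T against Q418R 3. TPM gave 0 for R342C in either medium and 3 for K365T against Q418R, and upper-quartile scaling 3 for the latter. Except where a share of all genes is given above, these counts stand without one. They tell only how the count moved with the setting, and a setting may call more or fewer of all genes too. Where not stated, the cause was not tested. TPM moved the median of all genes by up to 0.19 and upper-quartile scaling by up to 0.13.

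Whether replicate numbers pair the samples is not settled by these values. Deviations of same-numbered libraries correlated across 28 pairs of groups with a median r of 0.08, from -0.39 to 0.45. In 13 of the 28 pairs r was over 0.1. With the number as a block, 19 genes were called for K365T in LIF in place of 21, and 6 of 177 calls in all contrasts were lost. Depth limits Asz1 and Spo11, which had 10 or fewer recovered reads in most libraries, and Tdrd6 in LIF.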
